A study of Mus musculus with 12 samples.

Results

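Nephritic glomeruli of the mouse strains 129S2SvPAs and C57BL6J were set side by side, on 3 arrays of each strain out of 12 arrays in the study. The members were chosen by title: the 3 arrays of 129S2SvPAs and the 3 of C57BL6J with anti-GBM glomerulonephritis (anti-GBM GN) at day 4. All mice were females from Charles River aged 8 to 10 weeks. The nephritic mice received nephrotoxic serum on days 0, 1 and 2 and were killed on day 4, and glomeruli were recovered on nylon sieves of 100 and 45 µm. Control mice of both strains, 3 per strain with the same age and sex, were labelled as control animals. The series describes 3 mice per group, and the p-values measure the spread between these mice. No transgene or targeted allele is given in the labels.

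Nephrotoxic serum contains antibodies that bind the glomerular basement membrane and injure the capillary wall. Podocytes, the epithelial cells whose slit diaphragms complete the filter, lie on its outer side, and fenestrated endothelium lies on its inner side. The bound antibody draws in platelets and leukocytes through Fc receptors, complement and adhesion molecules. Filtered protein and inflammatory signals also injure tubule cells, which then express genes such as Havcr1 and Lcn2. Inbred strains are known to differ in their course after such serum.

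The deposited values were log2 probe set signals with array medians of 2.99 to 3.06. Values near these medians form a floor, so a difference against it understates the true one. Of 18201 genes represented by their brightest probe set, 11921 were tested because that probe set lay above the overall median of the values (3.03) on 3 or more arrays. A difference is the mean of 129S2SvPAs minus the mean of C57BL6J on the log2 scale, given with the standard error (SE) of the limma fit over all 12 arrays. A gene was called at a Benjamini-Hochberg adjusted p under 0.05. Podocalyxin (Podxl) lay between 11.42 and 12.32 and Pecam1 between 9.25 and 10.16 in the nephritic arrays, so podocyte and endothelial RNA was present. RNA of the proximal tubule was also abundant. The 33 tested proximal tubule genes had a mean level per array of 10.81 to 11.01 in nephritic 129S2SvPAs and 11.14 to 11.39 in nephritic C57BL6J, without overlap. In controls these levels were 11.61 to 11.69 and 11.41 to 11.76. Replicate 1 of nephritic 129S2SvPAs stood apart, with r = 0.986 to each of the other 2 arrays of its group across probe sets, against 0.997 between those.

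In nephritis the strains differed in 999 genes, or 8.38% of those tested. Of these 416 were higher in 129S2SvPAs (3.49%) and 583 lower (4.89%). The median size of the called differences was 1.08, and 552 of them were at least 1. In 997 of the 999 the 3 arrays of one strain did not overlap the 3 of the other, a separation seen in 27.9% of all genes tested. Without C57BL6J anti-GBM GN replicate 1 or replicate 2 the count was 612 or 620, and without 129S2SvPAs anti-GBM GN replicate 1 it was 1110. With the proximal tubule level of each array as a covariate 260 genes were called, and 245 of these were among the 999. This level did not overlap between the nephritic groups, so it could not be fully separated from strain. The median SE rose with it from 0.19 to 0.28. Of the 111 called genes among those chosen for naming, 57 were not called with this covariate, among them Havcr1, Hmox1, Cbr3, Krt18, Nphs1, Ddn, Itgal, Ccl5, Gzma, Oasl2, Tap1 and H2-K1. Calls can be lost through the larger SE alone, and the part of tubule content in the strain difference was not tested further. The filter also bears on the calls: 20 of the 999 genes passed it through the 3 nephritic arrays of one strain alone, and such a gene had to differ. They include Serpina3n and Il34, high in 129S2SvPAs, and Nuf2, Bub1, Iqgap3, Nlrc5 and Gp9, high in C57BL6J, which are described below by their values, without a test.

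Much of the strain difference was also present without disease. In controls 1005 genes were called (8.43%), and 426 genes were called in both states, which is 42.6% of the nephritic and 42.4% of the control list. The same sign was found for 420 of them, 154 higher and 266 lower in 129S2SvPAs. The nephritic and control comparisons share no array but share 1 estimate of the spread. Among the 118 genes called in nephritis with a difference of at least 2 in size, 87 were called in controls with the same sign. The difference in nephritis itself differed from that in controls for 67 genes (0.562%), and 43 of these were called in nephritis, 19 higher and 24 lower. With the proximal tubule covariate this contrast called 0 genes with a positive and 3 with a negative value in limma, while the unadjusted p was under 0.05 for 704. The median SE of the contrast rose from 0.26 to 0.38 with the covariate. Without 129S2SvPAs anti-GBM GN replicate 1 the 67 became 136, and without 129S2SvPAs control replicate 2 they became 15. Each of the other 10 arrays, left out singly, gave 19 to 40. Serpina3n, Il34, Nuf2, Bub1 and Iqgap3 are among the 67 and the 43. They passed the filter through the nephritic arrays of 1 strain alone, which fixed a difference. A count without such genes was not made.

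**Figure D1:**
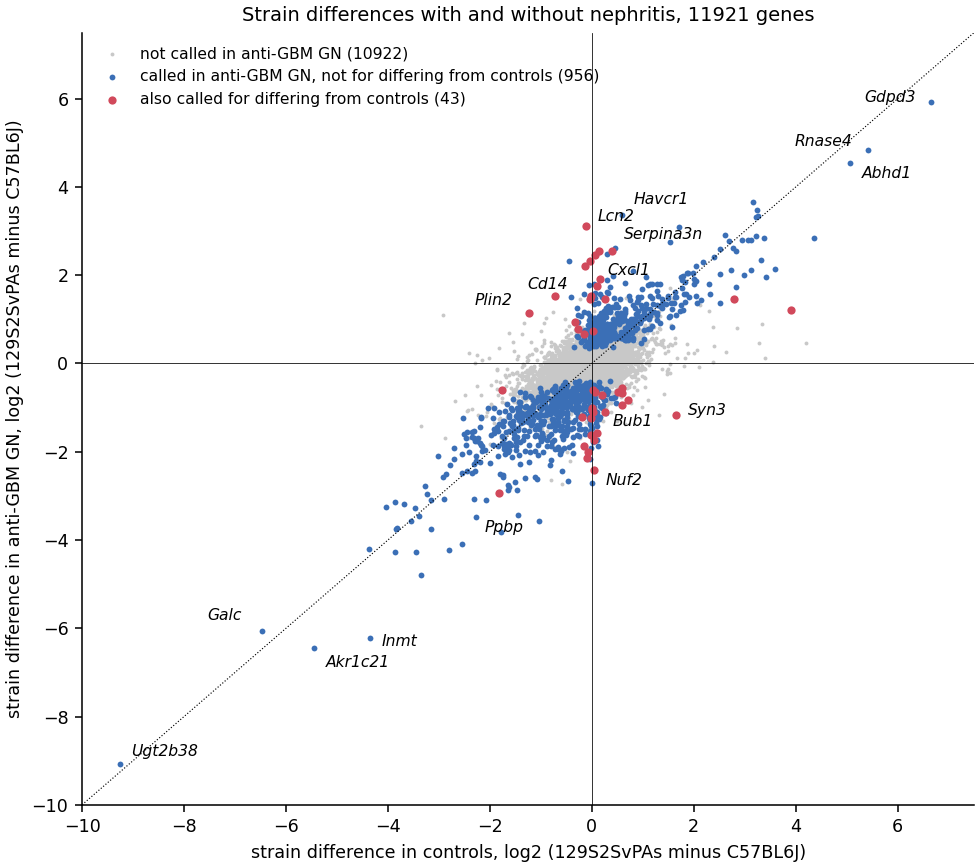
Log2 strain difference (129S2SvPAs minus C57BL6J) in controls on the horizontal axis and in anti-GBM GN on the vertical axis, 1 point per gene for 11921 genes; the dotted line marks equal differences. Ugt2b38, Galc, Gdpd3, Rnase4 and Abhd1 lie near the dotted line at both ends. Lcn2 and Cxcl1 lie near 0 in controls and away from 0 in anti-GBM GN. Nuf2 also does, but it passed the filter through nephritic C57BL6J alone, which fixed that position.

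The largest negative difference in nephritis was that of Ugt2b38, and it was similar in controls. Ugt2b38, a UDP-glucuronosyltransferase, read 2.65, 2.87 and 2.51 in nephritic 129S2SvPAs, replicates 1 to 3, and 11.75, 11.68 and 11.83 in nephritic C57BL6J. The signal was therefore at the floor on each 129S2SvPAs array and high on each C57BL6J array, a difference of -9.08 (SE 0.15, adjusted p = 6.09e-11 in limma), against -9.26 in controls. Akr1c21, a hydroxysteroid dehydrogenase, read 5.46, 7.36 and 7.63 in 129S2SvPAs and 13.32, 13.08 and 13.37 in C57BL6J. Its groups were far apart, although replicate 1 of 129S2SvPAs was lower than its companions (difference -6.44, SE 0.44, adjusted p = 8.59e-06). The methyltransferase gene Inmt differed by -6.23 (SE 0.31) and the epoxygenase gene Cyp2c23 by -4.80 (SE 0.28), and their differences in controls were smaller in size, at -4.35 and -3.35, with adjusted p = 0.119 and 0.176 for the change between states in limma.

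Other genes among the 12 largest negative differences were Tmem267 (-4.28), Nxpe4 (-4.27), the carbonic anhydrase gene Car3 (-4.23), adenosine deaminase (Ada, -4.08), the chloride channel family gene Clic3 (-3.81) and Rpgrip1 (-3.76). All of these were also called with the same sign in controls, with Clic3 the weakest there at -1.79 (adjusted p = 0.0379 in limma). Galc, the lysosomal galactosylceramidase, and Trim34a, a tripartite motif gene, differed by -6.07 and -4.20 on the probe set used.

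In the opposite direction Gdpd3, a glycerophosphodiester phosphodiesterase gene, read 9.66, 9.17 and 8.99 in nephritic 129S2SvPAs and 3.46, 3.09 and 3.48 in nephritic C57BL6J. Every 129S2SvPAs array was high and every C57BL6J array was near the floor (difference 5.93, SE 0.22, adjusted p = 9.54e-08), and the difference in controls was 6.65. The ribonuclease gene Rnase4 read 11.83, 12.80 and 12.79 in 129S2SvPAs and 7.73, 7.70 and 7.47 in C57BL6J (difference 4.84, SE 0.28). Abhd1 differed by 4.55 (SE 0.14), the tRNA deaminase subunit gene Adat2 by 3.48 (SE 0.27) and Abcb1b, which encodes a P-glycoprotein drug efflux pump, by 3.34 (SE 0.23). Tmem87a, the integrin subunit gene Itga9, Zfp991 and the secreted enzyme gene Pm20d1 differed by 3.32, 3.10, 2.90 and 2.88. Each of these 9 genes was also called higher in control 129S2SvPAs. Angptl7, an angiopoietin-like gene, differed by 3.66 (SE 0.95, adjusted p = 0.0375 in limma), but its 129S2SvPAs arrays ranged from 4.72 to 8.51, and its call was lost in 8 of 12 fits that left out 1 array, 5 of them without a nephritic array and 3 without a C57BL6J control, with adjusted p up to 0.132.

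**Figure D2:**
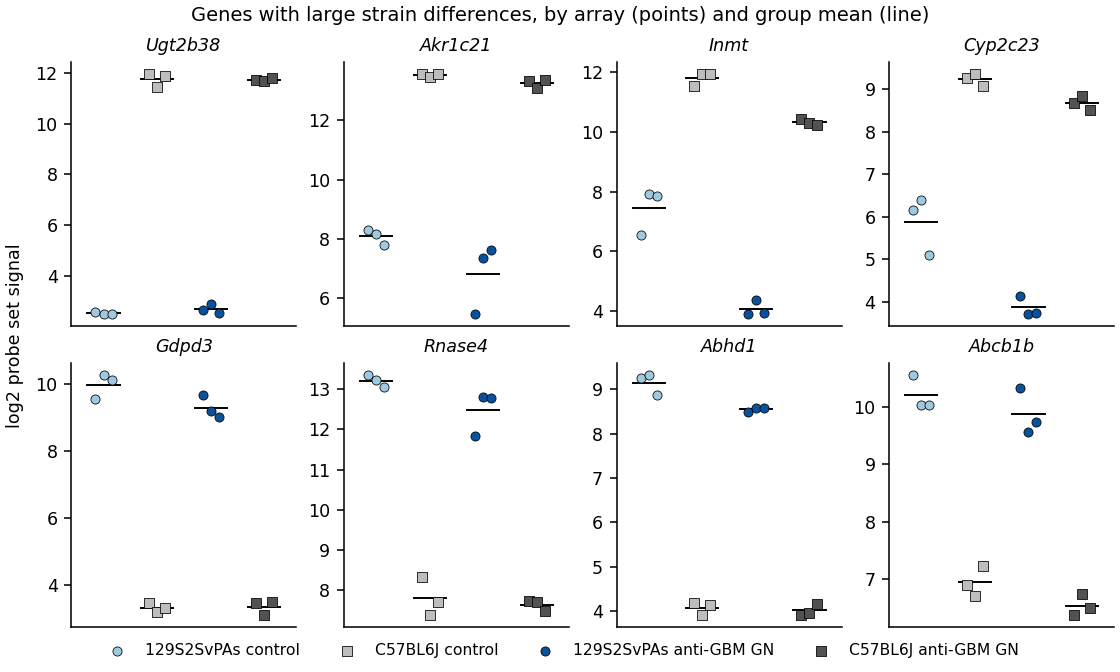
Log2 probe set signal on each of the 12 arrays for 8 genes with large strain differences; points are arrays, horizontal lines are group means, and vertical axes differ between panels and do not start at 0. In each panel the 3 nephritic arrays of 129S2SvPAs do not overlap the 3 of C57BL6J, and the controls lie on the same side.

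Array probes can match one strain's sequence better than the other's, so the other probe sets of each gene were read as well. Of the 999 called genes 412 had a next-brightest probe set above the overall median on 3 or more arrays. Its difference had the same sign in 334 (81.1%), was called with the same sign in 127 (30.8%) and was called with the opposite sign in 10. Xaf1, an interferon-induced gene, was at -3.74 on the probe set used and at 5.19 on its other one, so no direction is given for it. Galc was at -6.07 and -0.10, Car3 at -4.23 and 0.14, and Me1, the malic enzyme gene, at 1.05 and 0.13. Trim34a was at -4.20 and 0.29, Itga9 at 3.10 and 0.10, and Zfp991 at 2.90 and -0.99. The second probe sets of Galc, Car3 and Trim34a averaged 2.79, 3.09 and 3.34 in nephritic 129S2SvPAs. In nephritic C57BL6J they averaged 2.89, 2.94 and 3.04. These levels are near the floor, where a difference can be hidden. That of Me1 was bright, at 9.48 and 9.35. A further probe set of Car3 was at -1.08 and was not called. The other probe set of Pm20d1 also differed, by 2.14, and those of Rsad2 and Cxcl13 by -2.07 and -2.77. For these genes both probe sets gave the same direction. Ugt2b38, Akr1c21, Inmt, Gdpd3, Rnase4 and Abhd1 had no other probe set above the floor.

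Of 32 tested genes of epithelial injury 7 were higher and 0 lower in nephritic 129S2SvPAs, and the list's median difference was 0.42 against 0.03 over all genes tested. The 7 are a share of 21.9%, against 8.38% over all genes tested. With the proximal tubule covariate 3 were higher, and with only the nephritic groups in the fit 4 were higher and 1 lower. The secreted lipocalin Lcn2, an iron-siderophore carrier, read 9.37, 10.20 and 10.63 in 129S2SvPAs and 6.08, 7.56 and 7.24 in C57BL6J. The groups did not overlap, and control arrays of both strains lay between 3.44 and 3.81. The difference of 3.11 (SE 0.37, adjusted p = 0.000453 in limma) was 3.22 larger than in controls (adjusted p = 0.0307). Havcr1, which encodes the tubular injury marker KIM-1, read 5.53, 8.32 and 8.95 in 129S2SvPAs and 3.16, 5.24 and 4.33 in C57BL6J. Its lowest 129S2SvPAs value lay just above its highest C57BL6J value (difference 3.36, SE 0.76, adjusted p = 0.021). Without C57BL6J anti-GBM GN replicate 1 or 3, or 129S2SvPAs anti-GBM GN replicate 2 or 3, Havcr1 was not called, with adjusted p up to 0.086.

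The tight junction gene Cldn4 differed by 1.43 (SE 0.26) and the simple keratin Krt18 by 1.49 (SE 0.28), and Krt18 was also higher in control 129S2SvPAs (1.18). The lipid droplet coat gene Plin2 read 10.72, 10.57 and 10.27 in nephritic 129S2SvPAs and 9.17, 9.39 and 9.58 in nephritic C57BL6J. This difference of 1.14 (SE 0.20, adjusted p = 0.00504) had the opposite sign in controls, where it was -1.23 (adjusted p = 0.00319). Several members were not called in limma. Hbegf, a ligand of the EGF receptor, was at 0.38 (adjusted p = 0.436) and Egfr at 0.30 (adjusted p = 0.55). Clu, a secreted chaperone, was at 0.85 (adjusted p = 0.075) and Atf3, a stress transcription factor, at 0.51 (adjusted p = 0.271). The other probe sets of Clu were at 0.85 to 0.98. Of these 1 was called, at 0.86 (adjusted p = 0.0448 over probe sets in limma).

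Targets of NRF2, the transcription factor of the antioxidant response, showed 4 higher and 0 lower members of 29 tested, with a median of 0.19. The share called was 13.8%, against 8.38% over all genes tested. The 4 became 7 when 129S2SvPAs anti-GBM GN replicate 1 was left out, and 2 with the proximal tubule covariate. Haem oxygenase (Hmox1), which degrades haem, read 8.48, 10.25 and 9.18 in 129S2SvPAs and 7.21, 7.26 and 6.48 in C57BL6J. The arrays did not overlap (difference 2.32, SE 0.39, adjusted p = 0.004), and the difference from controls, 2.78, had adjusted p = 0.0586. Carbonyl reductase 3 (Cbr3) differed by 1.54 (SE 0.23) and thioredoxin reductase 1 (Txnrd1) by 0.95 (SE 0.13), each beyond its difference in controls, by 2.26 and 1.27. Malic enzyme (Me1) was higher by 1.05 in nephritis and by 1.01 in controls. The gene of NRF2 itself, Nfe2l2, was at -0.06 (adjusted p = 0.908), while its other probe set was at 1.24 (adjusted p = 0.00442 over probe sets in limma). Nnt, which encodes the mitochondrial transhydrogenase and carries a known deletion in C57BL/6J, was at 0.57 (adjusted p = 0.078) and on its other probe set at 1.16 (adjusted p = 0.00246). The Nnt difference in controls was called, at 1.27.

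Several further genes were higher in nephritic 129S2SvPAs and were not called in controls. Serpina3n, a serine protease inhibitor gene, read 4.76, 5.07 and 5.23 in 129S2SvPAs and 2.44, 2.45 and 2.50 in C57BL6J, so it was at the floor in each nephritic C57BL6J array (difference 2.56, SE 0.14). Cxcl1, a neutrophil chemoattractant, read 6.97, 7.56 and 7.34 in 129S2SvPAs and 5.58, 4.47 and 4.46 in C57BL6J, without overlap (difference 2.45, SE 0.28, adjusted p = 0.000382). Cd14, the co-receptor for bacterial lipopolysaccharide, was at 8.77, 8.91 and 8.90 against 6.85, 6.86 and 6.24, also without overlap (difference 2.21, SE 0.24, adjusted p = 0.00025). Il34, a ligand of the CSF1 receptor, differed by 1.45 (SE 0.13), the metalloproteinase inhibitor Timp1 by 1.91 (SE 0.20) and the fibrillar collagen gene Col5a3 by 2.55 (SE 0.26). Controls of the strains differed by -0.13 to 0.39 in these 6 genes, and none of the 6 was called there. Serpina3n and Il34 passed the filter through nephritic 129S2SvPAs alone, so a nephritic difference was fixed for them. For Cxcl1, Cd14, Timp1 and Col5a3 the nephritic difference was beyond the control difference at adjusted p under 0.05, and with the proximal tubule covariate none of these 4 was. Tlr2, a toll-like receptor for bacterial lipoproteins, differed by 0.74 (adjusted p = 0.0131), and without C57BL6J anti-GBM GN replicate 1 or 129S2SvPAs anti-GBM GN replicate 3 its adjusted p was 0.0563 or 0.0506, above the threshold.

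**Figure D3:**
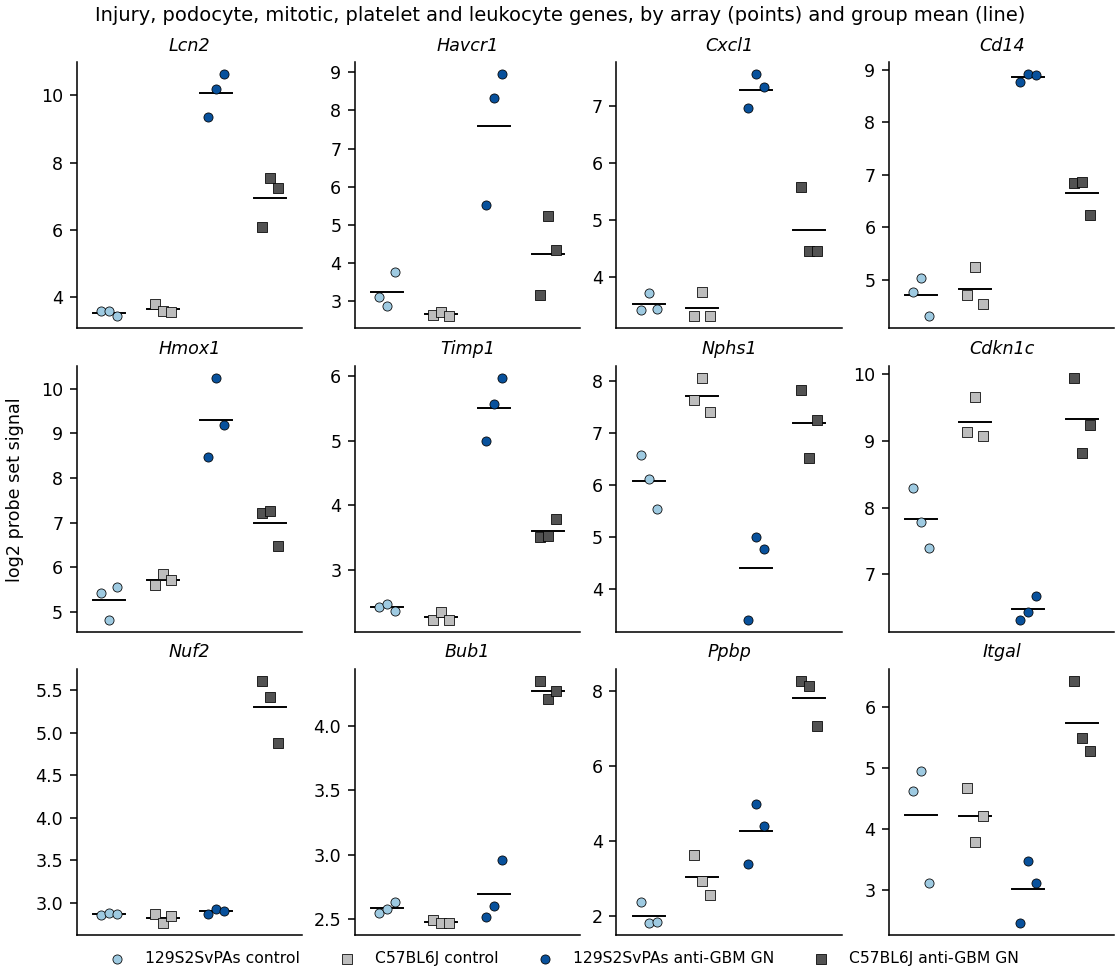
Log2 probe set signal on each of the 12 arrays for 12 genes of injury, podocytes, mitosis, platelets and leukocytes; points are arrays, lines are group means, and vertical axes differ between panels and do not start at 0. Lcn2, Cxcl1, Cd14, Hmox1 and Timp1 are highest in nephritic 129S2SvPAs, while Nuf2 and Bub1 are raised above both control groups in nephritic C57BL6J. The filter had fixed this for Nuf2 and Bub1, which passed it through nephritic C57BL6J alone.

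Podocyte genes were lower in nephritic 129S2SvPAs, with 0 higher and 11 lower of 36 tested and a median of -0.65. The share called was 30.6%, against 8.38% over all genes tested. In controls 17 were lower and 0 higher, with a median of -0.95, and 7 genes were called in both states. No member differed between the states at adjusted p under 0.05. Nephrin (Nphs1), the structural protein of the slit diaphragm, read 3.42, 5.01 and 4.77 in 129S2SvPAs and 7.82, 6.51 and 7.25 in C57BL6J. Its groups did not overlap, and replicate 1 of 129S2SvPAs was the lowest (difference -2.79, SE 0.45, adjusted p = 0.00308 in limma). Cdkn1c, a cell cycle inhibitor of mature podocytes, read 6.32, 6.44 and 6.67 against 9.95, 8.82 and 9.24, again without overlap (difference -2.86, SE 0.30, adjusted p = 0.000207). Dendrin (Ddn) was at -2.68 (SE 0.43) and the nephrin relative Kirrel at -1.93 (SE 0.21).

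The podocyte transcription factor Wt1 was at -1.58 (SE 0.39, adjusted p = 0.0307). Without C57BL6J anti-GBM GN replicate 1 or 3, or 129S2SvPAs anti-GBM GN replicate 1 or 3, it was not called, with adjusted p up to 0.11. Podxl was not called, at -0.50 (adjusted p = 0.236). The list's mean level was 6.97 to 7.16 in nephritic 129S2SvPAs and 7.60 to 8.19 in nephritic C57BL6J. In bulk glomeruli fewer podocytes and less RNA per podocyte cannot be told apart. The count of 11 became 5 without C57BL6J anti-GBM GN replicate 1 or 3 or 129S2SvPAs anti-GBM GN replicate 3, 6 without 129S2SvPAs anti-GBM GN replicate 1 and 7 without C57BL6J control replicate 2. With the proximal tubule covariate 2 members were lower.

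Of 29 endothelial genes 2 were lower and 0 higher, a share of 6.9% against 8.38% over all genes tested, with a median of -0.32. In controls 9 were lower, with a median of -1.04, and 0 genes were called in both states. For 1 member the change between the states was called. Ehd3, an endocytic protein gene of glomerular endothelium, differed by -1.85 (SE 0.39, adjusted p = 0.0158). Gata5, which encodes a transcription factor, differed by -1.31 (SE 0.27, adjusted p = 0.0134). Neither was called without C57BL6J anti-GBM GN replicate 2 (adjusted p = 0.0578 and 0.0596), and without replicate 1 Ehd3 had adjusted p = 0.0678. The VEGF receptor Kdr was at -1.13 (adjusted p = 0.0988). Of 17 mesangial and smooth muscle genes 2 were lower, or 11.8%. These were the growth factor gene Ptn at -1.55 (SE 0.30) and the myosin kinase gene Mylk at -1.25 (SE 0.21). The mesangial marker Pdgfrb was at 0.60 (adjusted p = 0.295 in limma). Parietal epithelium had 2 higher and 2 lower of 12, or 33.3%. The higher ones were Krt18 and Krt8 (0.91), of which Krt8 was lost in 10 of the 12 fits that left out 1 array. The lower ones were the adhesion molecule genes Ncam1 (-1.29, SE 0.24) and Vcam1 (-0.88, SE 0.19). The other probe sets of Vcam1 were at -0.36 and -0.18 and were not called. Only 1 of 27 actin cytoskeleton genes was called, or 3.7%, below the share over all genes tested. This was Anln, which encodes a scaffold of the cleavage furrow (-2.15, SE 0.36). Without C57BL6J anti-GBM GN replicate 3 or 129S2SvPAs control replicate 3 the count was 3.

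Matrix genes moved in both directions. The shares called were 15.8% of interstitial genes and 14.3% each of basement membrane, protease and coagulation genes, against 8.38% of all genes tested. Of 19 interstitial matrix genes 2 were higher, Col5a3 and the elastic fibre gene Fbln2 (1.48, SE 0.23), and 1 was lower, the collagen I gene Col1a2 (-1.86, SE 0.29), which was also lower in controls (-2.47). The other probe set of Fbln2 was at 0.11 (adjusted p = 0.541 in limma). It lay near the floor, at 3.08 in nephritic 129S2SvPAs and 2.97 in nephritic C57BL6J. Leaving out 129S2SvPAs anti-GBM GN replicate 1 gave 4 higher and 2 lower, and 2 were also lower without C57BL6J anti-GBM GN replicate 3, 129S2SvPAs anti-GBM GN replicate 2 or 129S2SvPAs control replicate 1 or 3. Basement membrane genes were lower in 3 of 21: the collagen IV chains Col4a3 (-1.18) and Col4a4 (-0.92) and the laminin chain Lamc1 (-0.64), with adjusted p of 0.0369, 0.0336 and 0.045 in limma. These 3 were weak calls, each lost in 8 to 10 of the 12 fits that left out 1 array, and 0 members were called without any one of C57BL6J anti-GBM GN replicates 1 and 2, C57BL6J control replicates 2 and 3 and 129S2SvPAs anti-GBM GN replicate 3. Among 14 matrix proteases and inhibitors Timp1 was higher and Mmp23 lower (-2.57, SE 0.44). Of 21 coagulation genes the endothelial protein C receptor gene Procr was higher (2.05, SE 0.45) and 2 were lower, coagulation factor V (F5, -1.31, SE 0.19) and the fibrinogen chain Fgg (-2.0, SE 0.48). Procr lost its call without C57BL6J anti-GBM GN replicate 1 or 3 or 129S2SvPAs replicate 2 or 3, and Fgg in 5 of the 6 fits without a nephritic array, all but that without C57BL6J replicate 1, with adjusted p up to 0.0611 and 0.0995.

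Of 39 cell cycle genes 14 were lower and 0 higher in nephritic 129S2SvPAs than in nephritic C57BL6J, with a median of -0.86. Leaving out the 3 members that passed the filter through nephritic C57BL6J alone, 11 of 36 were lower and the median was -0.70. These are shares of 35.9% and 30.6%, against 8.38% over all genes tested. In controls 1 was lower and the median was -0.05. For 5 members the nephritic difference was called beyond that in controls. Nuf2 and Bub1 are among the 5, and the filter had fixed their difference, so this count is no support. Nuf2, a kinetochore subunit, read 2.87, 2.92 and 2.90 in nephritic 129S2SvPAs and 5.61, 5.42 and 4.88 in nephritic C57BL6J. All 6 control arrays lay between 2.76 and 2.88, so Nuf2 stood above the floor in nephritic C57BL6J alone among the 4 groups (difference -2.41, SE 0.16). The spindle checkpoint kinase Bub1 read 2.52, 2.60 and 2.96 against 4.35, 4.21 and 4.27, without overlap (difference -1.58, SE 0.12). Hmmr, a spindle-associated hyaluronan receptor, was at -1.74 (SE 0.15), the cytokinesis kinesin Kif23 at -2.15 (SE 0.24) and Iqgap3, a scaffold protein gene, at -1.0 (SE 0.09). Their differences in controls were 0.04, -0.09 and 0.00.

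For 2 of these genes the other probe set did not show the difference, with 0.12 for Kif23 and -0.37 for Hmmr. These probe sets were low, at 3.41 and 3.35 in nephritic 129S2SvPAs and 3.29 and 3.72 in nephritic C57BL6J. The proliferation antigen gene Mki67 read 4.34, 6.16 and 5.94 in 129S2SvPAs and 7.01, 7.84 and 7.80 in C57BL6J, without overlap (difference -2.07, SE 0.52, adjusted p = 0.0333). Without C57BL6J anti-GBM GN replicate 2 or 3 or 129S2SvPAs anti-GBM GN replicate 1 or 3 it was not called, with adjusted p up to 0.118. The cell cycle inhibitor Cdkn1a was at 0.44 (adjusted p = 0.581), and its arrays overlapped. The count of 14 became 9 without C57BL6J anti-GBM GN replicate 2, 11 without 129S2SvPAs anti-GBM GN replicate 1, 5 with the proximal tubule covariate, 6 with only the nephritic groups in the fit and 2 with a stricter filter.

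Interferon response genes gave the largest share of calls among the 32 lists, with 0 higher and 19 lower of 37 tested and a median of -1.04. Xaf1 is among the 19; without it 18 of 36 were lower, still the largest share. In controls 23 were lower and 1 higher, with a median of -1.34, and 17 genes were called lower in both states. No member's difference changed between the states at adjusted p under 0.05. Rsad2, which encodes the antiviral enzyme viperin, read 9.16, 9.02 and 8.59 in nephritic 129S2SvPAs and 10.89, 11.16 and 10.49 in nephritic C57BL6J. The 2 strains did not overlap (difference -1.92, SE 0.21, adjusted p = 0.000305 in limma), and the difference in controls was -2.71. Oasl2, of the oligoadenylate synthetase-like family, was at -2.74 (SE 0.38) and the immunoproteasome subunit gene Psmb9 at -1.68 (SE 0.22). Ifi44l had the 1 positive difference in the list, 1.45, with adjusted p = 0.0637. It is named here after its value was seen. The count of 19 became 13 without C57BL6J anti-GBM GN replicate 1, 16 without 129S2SvPAs anti-GBM GN replicate 1 and 4 with the proximal tubule covariate.

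**Figure D4:**
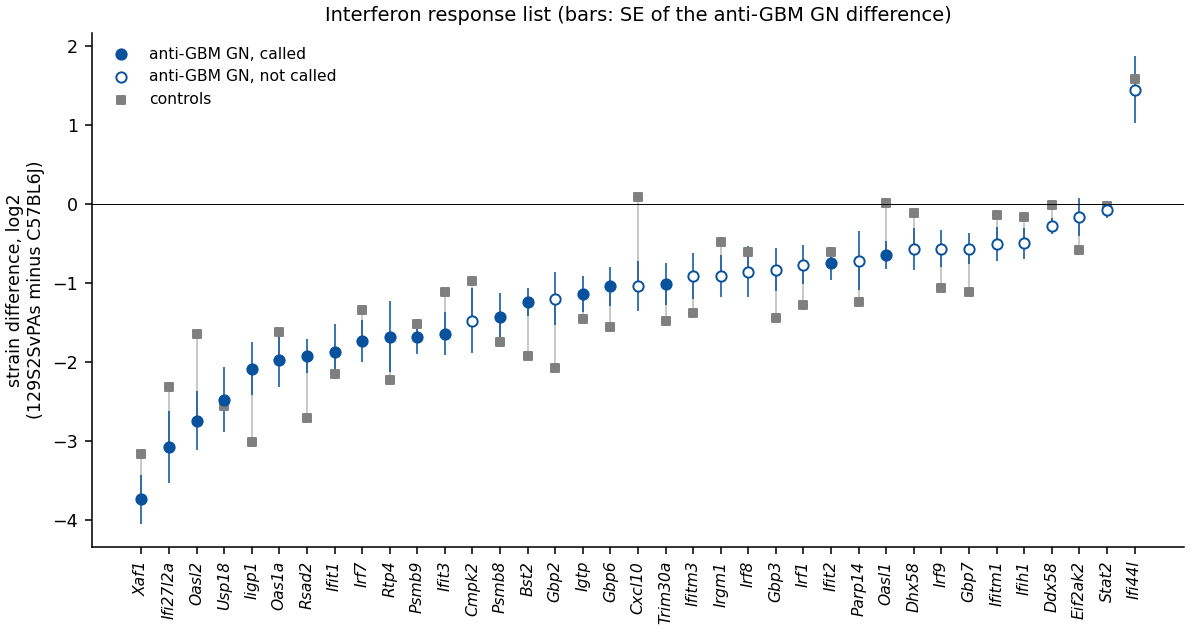
Log2 strain difference (129S2SvPAs minus C57BL6J) of the 37 tested interferon response genes, ordered by the difference in anti-GBM GN; circles are anti-GBM GN with its SE as bars (filled where called), and squares are controls. Nearly the whole list lies below 0 in both states, with Ifi44l above it, and the point of Xaf1 is contradicted by its other probe set.

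The promoters of these genes are shown because the list moved together. Interferon-bound STAT and IRF factors are known to act through the interferon-stimulated response element, whose core was searched as GAAANNGAAA on either strand (TTTCNNTTTC when read on the other). The windows ran from 250 bases before to 50 after each gene start in RefSeq (GRCm38.p6). They are the reference sequence of C57BL/6J and do not show 129S2SvPAs alleles. The core occurred in the promoters of 17 of 30 list members with a window, against 3.99% of 27025 genes. Among members called lower in nephritis it was found in 7 of 14, and among those not called in 10 of 16. A match is a description of these letters and was not tested as a site. Below are 4 of the 7, read 5′ to 3′ on the strand of the gene, with each match in capitals. Ifit1 and Ifit3 encode RNA-binding antiviral proteins and Bst2 the virus-tethering protein tetherin. Their strain differences in nephritis were -1.87, -1.64 and -1.24. The stretches lie at chr19:34640764-34640853 (plus strand) for Ifit1, chr19:34583367-34583456 (plus) for Ifit3, chr12:26456523-26456612 (minus) for Rsad2 and chr8:71537547-71537636 (minus) for Bst2.
Ifit1: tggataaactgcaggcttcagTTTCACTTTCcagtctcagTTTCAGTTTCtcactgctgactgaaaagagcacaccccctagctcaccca
Ifit3: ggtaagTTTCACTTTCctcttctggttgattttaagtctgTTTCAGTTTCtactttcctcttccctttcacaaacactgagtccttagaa
Rsad2: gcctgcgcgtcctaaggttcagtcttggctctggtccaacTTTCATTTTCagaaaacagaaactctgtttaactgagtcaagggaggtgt
Bst2: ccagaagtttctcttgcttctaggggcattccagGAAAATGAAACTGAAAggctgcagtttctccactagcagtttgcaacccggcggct

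In Bst2 the capitals cover 2 overlapping matches, and in Ifit1 and Ifit3 there are 2 separate ones. The antioxidant response element core, searched as TGACNNNGC on either strand, occurred in 10 of 24 NRF2 list members with a window, against 14.0% of all genes. Of the 3 called members with a window it was found in 2, and Txnrd1 is shown because its strain difference arose with nephritis. The stretch lies at chr10:82859074-82859162 on the plus strand, with the match in capitals.
Txnrd1: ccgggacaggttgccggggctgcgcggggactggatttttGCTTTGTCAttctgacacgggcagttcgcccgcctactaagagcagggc

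Several leukocyte genes were lower in nephritic 129S2SvPAs. The pan-leukocyte phosphatase gene Ptprc read 4.83, 5.14 and 5.29 in 129S2SvPAs and 7.54, 7.08 and 6.56 in C57BL6J, without overlap (difference -1.97, SE 0.35, adjusted p = 0.00537 in limma), and the control difference of -1.11 was not called (adjusted p = 0.0788). Of 11 leukocyte adhesion genes 5 were lower and 0 higher, a share of 45.5% against 8.38% over all genes tested. The integrin subunit Itgal, a chain of LFA-1, read 2.46, 3.48 and 3.12 in 129S2SvPAs and 6.43, 5.50 and 5.28 in C57BL6J, again without overlap (difference -2.72, SE 0.48, adjusted p = 0.00555). Controls differed by 0.01 there. Its partner Itgb2 was at -1.74 (SE 0.43, adjusted p = 0.0312), E-selectin (Sele) at -1.35 (SE 0.29, adjusted p = 0.016) and Vcam1 at -0.88 (adjusted p = 0.0185). The latter 2 are endothelial adhesion molecules for leukocytes, and the other probe sets of Vcam1 were at -0.36 and -0.18, not called. These 3 calls were weaker: each was lost without C57BL6J anti-GBM GN replicate 2 or 129S2SvPAs anti-GBM GN replicate 3, Sele also without C57BL6J replicate 3, and Itgb2 in 5 of the 6 fits without a nephritic array, C57BL6J replicate 3 excepted, with adjusted p up to 0.0725 for Vcam1, 0.0692 for Sele and 0.121 for Itgb2. The list count of 5 became 3 without C57BL6J anti-GBM GN replicate 1 and 1 without its replicate 2 or 129S2SvPAs anti-GBM GN replicate 3. With the proximal tubule covariate 0 of the 11 were called, and with only the nephritic groups in the fit or a stricter filter 3 were.

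Monocyte and macrophage genes were called lower in 3 of 16 tested and higher in 1, which was Cd14. This was a share of 25.0%, against 8.38% over all genes tested. Csf1r, the receptor for CSF1 and IL-34, was at -1.49 (SE 0.34, adjusted p = 0.0207), cathepsin S (Ctss) at -2.60 (SE 0.52, adjusted p = 0.0117) and lysozyme (Lyz1) at -2.66 (SE 0.72, adjusted p = 0.0449). All 3 lost their calls without C57BL6J anti-GBM GN replicate 1 (adjusted p = 0.0851, 0.0505 and 0.159). The 3 lower members became 0 without C57BL6J anti-GBM GN replicate 1, 1 without its replicate 2 or 129S2SvPAs anti-GBM GN replicate 2 or 3, and 5 without 129S2SvPAs control replicate 3, and 0 with the proximal tubule covariate. Adgre1, a macrophage surface antigen, lay at 3.05 to 3.51 on the 6 arrays, near the floor. The list's mean level was 5.09 to 5.33 in nephritic 129S2SvPAs and 5.55 to 6.21 in nephritic C57BL6J. Of 5 neutrophil genes 1 was lower, lactoferrin (Ltf, -1.0, SE 0.19), while the calprotectin subunits S100a8 (-1.17, adjusted p = 0.204) and S100a9 (-0.70, adjusted p = 0.499) overlapped between the strains. Of 6 lymphocyte genes granzyme A (Gzma) was lower (-2.50, SE 0.43), as in controls (-2.86), and the T cell gene Cd3e and B cell gene Cd79a lay at the floor, at no more than 2.55 and 2.25.

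Fc receptor and complement genes were lower in 3 of 17, or 17.6%. Without Fcgr4, which passed the filter through nephritic C57BL6J alone, 2 of 16 were lower, or 12.5%. The share over all genes tested was 8.38%. Fcer1g, the signalling chain shared by Fc receptors, was at -2.43 (SE 0.50, adjusted p = 0.0131 in limma). Its adjusted p was 0.0555 or 0.0538 without C57BL6J anti-GBM GN replicate 1 or 2. The count of 3 became 1 without C57BL6J anti-GBM GN replicate 1, C57BL6J control replicate 2 or 3 or 129S2SvPAs anti-GBM GN replicate 1, and 0 with the proximal tubule covariate. Fcgr2b, also called, was at -1.40 and lost its call in 7 of the 12 fits that left out 1 array. Fcgr3, an activating IgG receptor gene, was at -0.61 (adjusted p = 0.405 in limma). Of 16 chemokines and cytokines 2 were higher, Cxcl1 and Il34, and 3 lower, a share of 31.2%. Without Il34, which passed the filter through nephritic 129S2SvPAs alone, 1 of 15 was higher and 3 were lower, or 26.7%. Cxcl13, the B cell attractant, read 2.59, 2.67 and 2.62 in 129S2SvPAs and 5.86, 6.56 and 5.78 in C57BL6J, at the floor in the one strain and above it in the other (difference -3.44, SE 0.32, adjusted p = 0.000105). Ccl5, which attracts T cells and monocytes, was at -2.58 (SE 0.36), as in controls (-2.92).

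Platelet genes were lower in 3 of 11 tested and higher in 0, with a median of -0.98. Without Gp9, which passed the filter through nephritic C57BL6J alone, 2 of 10 were lower and the median was -0.87. Ppbp, a chemokine precursor of platelet granules, read 3.39, 4.98 and 4.41 in 129S2SvPAs and 8.27, 8.13 and 7.06 in C57BL6J. The strains did not overlap (difference -3.56, SE 0.44, adjusted p = 0.000535 in limma), and the control difference was -1.03 (adjusted p = 0.191). The test of the change from controls gave -2.53 with adjusted p = 0.135. The glycoprotein gene Gp9 was at -0.98 (SE 0.18), and the platelet tubulin gene Tubb1 at -1.18 (SE 0.27), with adjusted p up to 0.0844 for Tubb1 without C57BL6J anti-GBM GN replicate 1 or 2 or 129S2SvPAs replicate 2 or 3. Pf4, another granule chemokine, was at -0.73 (adjusted p = 0.335), and the integrin subunit gene Itga2b at 0.05 (adjusted p = 0.85).

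**Figure D5:**
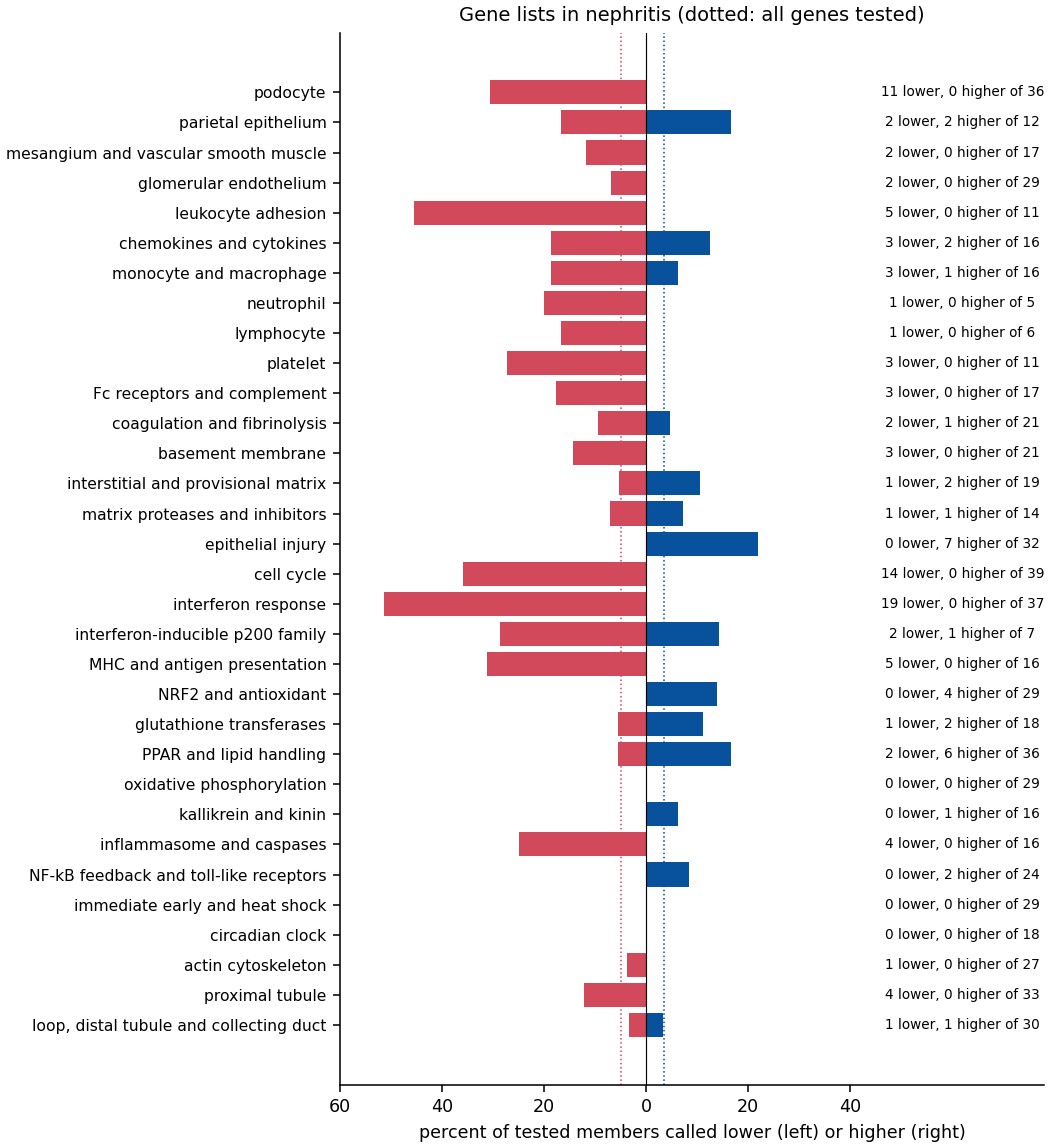
Percent of the tested members of 32 gene lists that were called lower (left) or higher (right) in nephritic 129S2SvPAs than in nephritic C57BL6J, with the counts at the right; dotted lines mark the same percentages over all genes tested, 4.89 and 3.49. The interferon, leukocyte adhesion, cell cycle, antigen presentation and podocyte bars reach farthest to the left, and the epithelial injury bar farthest to the right.

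Genes of antigen presentation were lower in 5 of 16 and higher in 0, or in 2 with the proximal tubule covariate. Without Nlrc5, which passed the filter through nephritic C57BL6J alone, 4 of 15 were lower. The shares were 31.2% with Nlrc5 and 26.7% without it, against 8.38% over all genes tested. The class I molecule genes H2-M3 and H2-K1 were at -1.66 (SE 0.17) and -1.19 (SE 0.18), the peptide transporter Tap1 at -1.54 (SE 0.25) and Nlrc5, an activator of class I genes, at -1.37 (SE 0.17). Nlrc5 read 2.39, 2.35 and 2.40 in 129S2SvPAs, at the floor, and 4.09, 3.32 and 3.84 in C57BL6J. Controls differed in H2-M3 (-1.46), and the other 3 were not called there. Of 16 inflammasome and caspase genes 4 were lower (25.0%) and 0 higher. With that covariate 1 was lower, and with a stricter filter 0 were. Casp4, which encodes the murine caspase-11 that senses cytosolic lipopolysaccharide, read 2.06, 2.75 and 2.16 in 129S2SvPAs and 4.32, 4.35 and 4.20 in C57BL6J, without overlap (difference -1.97, SE 0.23, adjusted p = 0.0004; -1.49 in controls). Gsdmd, the pore-forming substrate of that caspase, was at -1.02 (SE 0.20) and the necroptosis kinase Ripk3 at -0.79 (SE 0.13). In the p200 family of interferon-inducible DNA sensors Ifi202b was higher (1.60, SE 0.24), at 4.19, 5.26 and 5.01 in 129S2SvPAs and 3.24, 3.24 and 3.19 in C57BL6J, and Mndal was lower (-1.62, SE 0.26). This family thus held differences in both directions among 7 tested genes, with 1 higher and 2 lower, or 42.9%. The other lower one, Ifi213 (-1.40), was lost without any one of C57BL6J anti-GBM GN replicates 1 and 2 and 129S2SvPAs anti-GBM GN replicates 2 and 3.

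Lipid genes also split by direction, with 6 higher and 2 lower of 36 (22.2%) and a median of 0.01. Besides Plin2, the peroxisomal bifunctional enzyme Ehhadh was higher (1.30, SE 0.25, adjusted p = 0.00841), while cholesterol 25-hydroxylase (Ch25h) was lower (-1.46, SE 0.25) and so was Ppargc1a, a coactivator of mitochondrial biogenesis (-0.70, SE 0.12). The nephritic difference of Ppargc1a was beyond that in controls by -0.91 (adjusted p = 0.0479 in limma). Its other probe sets above the floor were at -1.02, which was called, and at -0.54, -0.01 and 0.26, which were not. The 6 higher members became 1 with the proximal tubule covariate, 3 without C57BL6J anti-GBM GN replicate 1 and 2 without 129S2SvPAs anti-GBM GN replicate 2. Pparg, the lipid-sensing nuclear receptor gene, lay near the floor in both strains, at 2.72 to 3.41 (difference -0.21, adjusted p = 0.538). Glutathione transferases had 2 higher and 1 lower of 18 (16.7%), led by Gstm5 (0.62, SE 0.12, adjusted p = 0.00974 in limma). The lower one, Gstm2 (-0.55), was lost in 9 of the 12 fits that left out 1 array. Of 16 kallikrein and kinin genes 1 was called, or 6.25%, against 8.38% over all genes tested. This was angiotensinogen (Agt), the precursor of angiotensin peptides, higher by 1.51 (SE 0.35, adjusted p = 0.0221 in limma). Without C57BL6J anti-GBM GN replicate 1 or 2 its adjusted p was 0.0778 or 0.0775.

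In 3 lists no member was called in limma: 29 oxidative phosphorylation genes, of which 0 had an unadjusted p under 0.05, 29 immediate early and heat shock genes, of which 2 did, and 18 circadian clock genes, of which 0 did. Their medians were -0.02, -0.02 and -0.01. Sdha, a subunit of succinate dehydrogenase, was at -0.26 (adjusted p = 0.309), and the stress genes Jund and Myc were at 0.49 and 1.25 (adjusted p = 0.154 and 0.094). These p-values do not show that the strains were alike.

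Of 33 proximal tubule genes 4 were lower and 0 higher, a share of 12.1% against 8.38% over all genes tested, with a median of -0.34, against 3 higher and 1 lower in controls. The glucose transporter Slc5a2 read 11.82, 11.85 and 11.59 in 129S2SvPAs and 12.26, 12.54 and 12.96 in C57BL6J, without overlap (difference -0.83, SE 0.18, adjusted p = 0.0152 in limma). Gatm, the first enzyme of creatine synthesis, read 9.73, 11.81 and 11.64 against 13.03, 12.99 and 12.86 (difference -1.90, SE 0.43, adjusted p = 0.0205), and replicate 1 of 129S2SvPAs was the lowest. Without C57BL6J anti-GBM GN replicate 1 or 2 Gatm had adjusted p = 0.0695 or 0.0686, and without 129S2SvPAs anti-GBM GN replicate 3 Slc5a2 had 0.0595. The phosphate transporter Slc34a1 was at -0.28 (adjusted p = 0.544). The count of 4 became 1 without C57BL6J anti-GBM GN replicate 2, and 2 without its replicate 1 or 3 or 129S2SvPAs anti-GBM GN replicate 3. Among 30 genes of later nephron segments 2 were called, or 6.67%, near the share over all genes. The growth factor precursor Egf was lower (-1.22, SE 0.20) and the water channel of the collecting duct, Aqp2, higher (1.73, SE 0.37, adjusted p = 0.0148, or 0.0607 without C57BL6J anti-GBM GN replicate 1). Umod, which encodes uromodulin of the thick ascending limb, was at -0.01 (adjusted p = 0.969).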

How the data were processed

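RNA of isolated glomeruli was measured on 12 Affymetrix mouse arrays, 1 per mouse in 4 groups of 3. The authors deposited log2 probe set signals for 45037 probe sets. The submitters' processing notes name MAS5 and GCRMA but give neither a version nor what each was used for. The values ran from 1.12 to 15.02, from which a log2 scale was inferred. Array dates and detection flags were not used here, so no batch was tested.

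Of the probe sets 34957 had 1 gene symbol, 920 several and 9160 none. The brightest single-symbol probe set stood for each of 18201 genes, and 11921 were tested. One mean per group was fitted in R 4.3.3 with limma 3.58.1 (eBayes, 10.7 total degrees of freedom, Benjamini-Hochberg within each contrast). The fit was tested on simulated data. The number of arrays limits the precision. Levels of different probe sets were not compared.

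The comparison, the 32 gene lists and the tests were chosen with earlier results of these data known. Genes chosen for naming were the 12 largest positive and 12 largest negative calls whose arrays did not overlap. To these were added the members with the smallest p in each list (4 at most), called or not. Also added were 8 genes called in nephritis and for differing from controls, and 20 fixed genes. Of the fixed genes Ren1 and Disc1 were not analysed here. Defining cell markers and genes with printed promoters are named besides. The interferon motif was added after results were seen. Figures used Python 3.11.15 and matplotlib 3.10.9. Alternatives are listed in the closing section.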

Additional observations from a re-analysis of the deposited data

Results flagged for a closer look

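The interaction contrast of the limma fit flagged 17 named genes for a strain difference in anti-GBM GN unlike that in controls. For some of them the filter had fixed a difference, as given below. The values below are the nephritic difference minus the control difference, log2, with 129S2SvPAs minus C57BL6J in each. Positive values were found for Lcn2 (3.22, adjusted p = 0.0307), Col5a3 (2.42, adjusted p = 0.0253), Cxcl1 (2.38, adjusted p = 0.0358) and Plin2 (2.37, adjusted p = 0.00587). The same held for Cd14 (2.34, adjusted p = 0.0193), Cbr3 (2.26, adjusted p = 0.0193), Timp1 (1.75, adjusted p = 0.0307) and Txnrd1 (1.27, adjusted p = 0.0222). Serpina3n (2.16) and Il34 (1.48) were also positive and are given without a test. Negative values were found for Syn3, a synaptic vesicle gene (-2.82, adjusted p = 0.00641), Kif23 (-2.05, adjusted p = 0.0358), Hmmr (-1.79, adjusted p = 0.00559) and Ppargc1a (-0.91, adjusted p = 0.0479). Nuf2 (-2.45), Bub1 (-1.69) and Iqgap3 (-1.01) were also negative and are given without a test. For Plin2 and Syn3 the 2 states had opposite signs, and Syn3 was at -1.16 in nephritis and at 1.66 in controls. The other probe set of Syn3 was at 0.11 in nephritis, and those of Kif23 and Hmmr were not called. Those of Ppargc1a ranged from -1.02 to 0.26 in nephritis, with 1 called. Serpina3n, Il34, Nuf2, Bub1 and Iqgap3 passed the filter only through the nephritic group where they were high, so their values describe and do not support a difference. With the proximal tubule covariate this contrast called 0 positive and 3 negative genes among all tested, so the 10 positive values above were not called then. Groups of 3 arrays are too small for a test of single outlying arrays, and none was made.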

How the results depend on the processing

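The count of 999 genes differing between the strains in anti-GBM GN stayed within 1.5 times under 8 of 12 other settings, from 749 with a stricter filter to 1432 with probe sets counted singly. It was 2256 with array weights, 578 with only the nephritic groups in the fit, 260 with the proximal tubule covariate and 552 with a log2 difference of at least 1 required. For these, beyond the fewer samples of the second and the added fold requirement of the last, the cause was not tested. The control count of 1005 became 1601 with array weights and 570 with the fold requirement. The 67 genes whose difference changed between the states became 18 with the stricter filter, 286 with array weights, 33 with the replicate block and 3 with the covariate. Leaving out 1 array gave 612 (C57BL6J anti-GBM GN replicate 1) to 1117 (129S2SvPAs control replicate 3) in anti-GBM GN, 503 (C57BL6J control replicate 2) to 1288 (129S2SvPAs anti-GBM GN replicate 1) in controls and 15 (129S2SvPAs control replicate 2) to 136 (129S2SvPAs anti-GBM GN replicate 1) for the change between states. Of 111 named genes called, 77 were called in all 12 such fits, 54 with the covariate and 87 with only the nephritic groups. When a gene's probe sets were averaged Xaf1 was at 0.72 (adjusted p = 0.137) and Nfe2l2 at 0.59 (adjusted p = 0.0476). The nephritic arrays with the same replicate number did not deviate together (r = -0.38, 0.121 and -0.234), while the control arrays did (r = 0.244, 0.284 and 0.239, against -0.085 to -0.16 for other numbers). The numbers were therefore not taken to pair the nephritic arrays; the replicate block gave 984 genes, 872 of them among the 999, and 1095 in controls. Leaving out members that passed the filter through one nephritic group, or Xaf1, was chosen after seeing the data.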
